A study of Mus musculus with 16 samples.

Results

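The genes of the actin cytoskeleton were followed in mouse pancreas after repeated cerulein injection. They are 48 genes picked by symbol from the 24019 genes of the deposited count table: 2 actins, 8 subunits of the Arp2/3 nucleator, 6 monomer-binding and turnover proteins, 6 capping, elongation and coronin proteins, 3 tropomyosins, 5 chains of myosin II, 10 crosslinkers and calponins, 5 adhesion linkers and 3 ERM membrane linkers. All 48 were found, and 45 had enough counts to be tested. Whole pancreas was taken from C57BL/6J wild-type (WT) mice and from littermates homozygous for Adam17ex, a hypomorphic allele of the sheddase gene Adam17. The homozygotes (Adam17ex/ex) are called Adam17ex here, and the labels name no cell type to which the allele is limited. All animals were 6 to 8 weeks old and received 7 hourly intraperitoneal injections. These held either cerulein at 50 µg/kg, a cholecystokinin analogue that overstimulates the enzyme-secreting acinar cells, or phosphate-buffered saline (PBS, 50 µl). Tissue was collected 1 h after the last injection. Each of the 4 groups (WT PBS, WT cerulein, Adam17ex PBS and Adam17ex cerulein) has 4 libraries. The labels do not say that replicates are separate mice, so p-values measure the spread between these libraries.

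Actin monomers polymerise into filaments that push, brace and pull on membranes. Arp2/3 starts branched filaments, profilin, cofilin and thymosins control the supply of monomers, tropomyosins coat filaments, myosin II contracts them, and linkers tie them to integrin adhesions and to the plasma membrane. In the acinar cell, a dense actin layer lies under the apical membrane where zymogen granules are released, and supramaximal cholecystokinin stimulation is known to disrupt it. Monomeric actin also holds back the coactivators MRTF-A and MRTF-B, which with serum response factor (SRF) act on CArG boxes in the promoters of many cytoskeletal genes.

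Library depth ran from 455547 to 1476159 UMIs (unique molecular identifiers, each counting 1 captured RNA molecule). Adam17ex PBS replicates 1 to 3 were the shallowest, at 455547 to 492878 UMIs, and the nuclear ribosomal RNA gene CT010467.1 took 7.84% to 9.02% of their UMIs, against 2.02% to 5.04% in the other 13 libraries. Adam17ex PBS replicate 3 stood apart in its markers. Its summed macrophage and monocyte markers reached 898 CPM (UMIs scaled to a common library size, with TMM factors) against 133 to 317 in the other 3 of its group, its fibroblast and stellate markers 1252 against 427 to 712, and its B and T cell markers 131 against 5.16 to 18.2. Acinar markers were high in all 16 libraries (115231 to 249027 CPM). Adam17 itself had 41 and 68 UMIs in all over the WT PBS and WT cerulein libraries, and 10 and 15 over the Adam17ex ones. Counts from the 3′ end need not cover the altered stretch of the allele.

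Promoters are shown first, because several members are classical SRF targets. RefSeq promoters of 300 bases (250 before to 50 after the start, GRCm38.p6) were matched by symbol for 44 of the 48 genes, with 49 promoters between them. Actb, Arpc5l, Coro1b and Plec had no entry. A CArG box, searched on both strands, lay in 8 of the 49 promoters (16.3%) and in 535 of all 32851 promoters (1.63%). The 8 genes are Actg1, Arpc4, Cnn2, Lima1, Myl6, Myl9, Vcl and Vil1. The core GGAATG of TEAD factors lay in 14.3% of member promoters and 14.7% of all, and the AP-1 motif TGANTCA in 8.16% and 7.81%, both strands searched. A match describes letters in a window and is no evidence of binding. Of the genes with the box, Actg1, Arpc4, Lima1, Myl6 and Vcl rose under cerulein in WT. Only Myl9 fell, on 2 to 18 UMIs per WT library, and Cnn2 and Vil1 were not tested. Of all 45 tested members, 35 rose there. The stretches before the start of Actg1, Lima1, Vcl and Myl9 are printed. Each is written 5′ to 3′ on the gene's strand in lower case, with the CArG box in capitals and annotated first-exon bases left out.
Actg1, chr11:120348543-120348745, minus strand: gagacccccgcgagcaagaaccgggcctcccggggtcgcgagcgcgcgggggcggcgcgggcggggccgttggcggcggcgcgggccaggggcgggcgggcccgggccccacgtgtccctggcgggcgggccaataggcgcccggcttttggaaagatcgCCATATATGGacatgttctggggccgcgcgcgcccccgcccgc
Lima1, chr15:99820150-99820399, minus strand: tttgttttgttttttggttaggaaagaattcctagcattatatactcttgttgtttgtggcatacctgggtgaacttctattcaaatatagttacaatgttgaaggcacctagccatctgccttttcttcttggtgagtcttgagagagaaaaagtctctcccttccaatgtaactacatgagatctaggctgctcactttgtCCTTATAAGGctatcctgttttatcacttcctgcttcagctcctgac
Vcl, chr14:20929148-20929397, plus strand: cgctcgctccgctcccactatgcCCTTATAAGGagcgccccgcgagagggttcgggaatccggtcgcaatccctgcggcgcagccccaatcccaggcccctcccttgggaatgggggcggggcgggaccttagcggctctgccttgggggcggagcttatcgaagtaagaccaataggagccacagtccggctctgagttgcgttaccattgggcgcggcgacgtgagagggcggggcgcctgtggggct
Myl9, chr2:156775214-156775419, plus strand: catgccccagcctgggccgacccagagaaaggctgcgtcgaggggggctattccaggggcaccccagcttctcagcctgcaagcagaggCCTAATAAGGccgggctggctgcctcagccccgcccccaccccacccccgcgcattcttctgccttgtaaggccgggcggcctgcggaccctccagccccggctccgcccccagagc
The box lies 90 bases before the RefSeq start in Actg1, 47 in Lima1, 227 in Vcl and 161 in Myl9. The Lima1 start is an alternative one inside the gene's span.

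Together, the 48 genes took 0.285% ± 0.0373 of all UMIs in WT PBS libraries and 1.20% ± 0.0985 in WT cerulein libraries (SD, n = 4). In Adam17ex the shares were 0.348% ± 0.142 under PBS and 0.661% ± 0.0528 under cerulein. The WT libraries did not overlap, at 0.250% to 0.337% and 1.11% to 1.34%. Adam17ex cerulein libraries lay at 0.604% to 0.714%, above their own controls (0.227% to 0.543%) and under every WT cerulein library. The highest Adam17ex control was replicate 3. Actb and Actg1 alone took 0.0713% ± 0.00460 and 0.531% ± 0.0842 of UMIs in WT PBS and WT cerulein libraries, and 0.0868% ± 0.0435 and 0.222% ± 0.0266 in Adam17ex. These are shares of bulk tissue RNA, in which fewer cells of a type and less RNA per cell cannot be told apart.

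**Figure D1:**
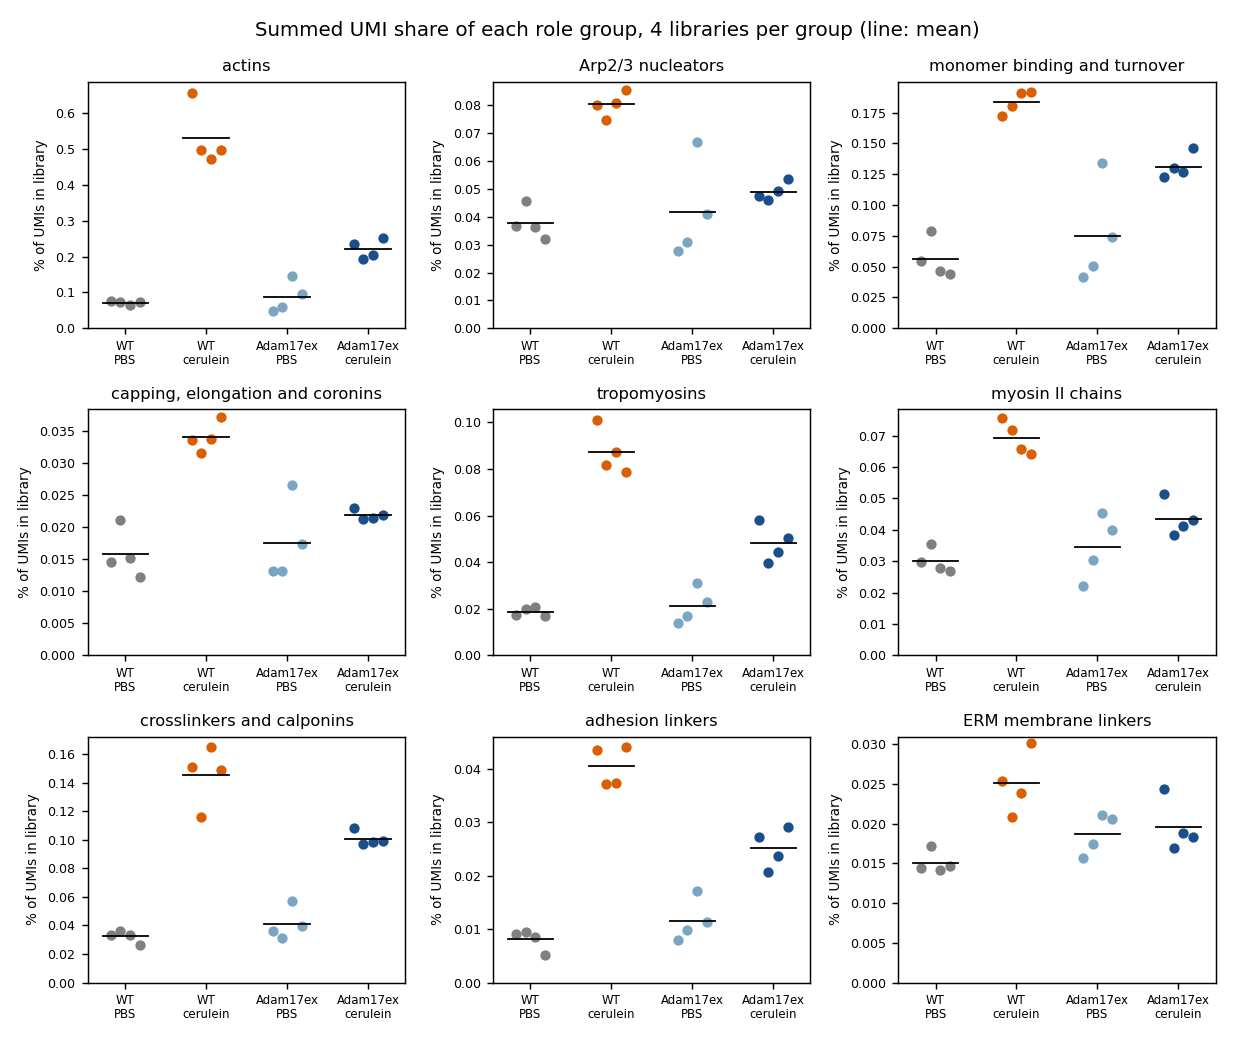
Share of all UMIs (percent, linear axis from 0) taken by each role group in each library, with points for libraries and a line at each group mean. The actins averaged 0.531% in WT cerulein libraries against 0.0713% in WT PBS, and 0.222% in Adam17ex cerulein against 0.0868% in Adam17ex PBS.

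Under cerulein in WT, 35 of 45 tested members rose and 1 fell (edgeR quasi-likelihood test, Benjamini-Hochberg adjusted p under 0.05 over 8236 genes). Of all genes tested, 19.8% rose and 21.3% fell. The members' median log2 fold change was 1.14, against -0.04 over all genes. All 4 cerulein libraries exceeded all 4 PBS libraries for 36 members, which held for 19.2% of all genes. The reverse held for 1 member, Myl9, and for 20.2% of all genes. Zyx, Actg1 and Actn1 had the 3 highest fold changes, at 12.6, 11.1 and 8.48 times the PBS level. Over the 16 fits that each left out 1 library, 32 to 38 members rose.

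Under cerulein in Adam17ex, 18 of 45 rose and 2 fell, where 14.1% of all genes rose and 16.2% fell. The median was 0.46 for the members and -0.03 for all genes. For 20 members the groups did not overlap in the upward direction, against 13.8% of all genes. The highest 3 were Tpm4, Cap1 and Actn1, at 4.89, 4.57 and 3.95 times the PBS level. Without Adam17ex PBS replicate 3, 22 rose, and neither Myl9 nor Myl12b, the 2 that fell, passed any longer.

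Between genotypes under cerulein, 12 of 45 were lower in Adam17ex than in WT and 1, Cap1, was higher, against 3.85% and 5.85% of all genes (9.7% in either direction). The median was -0.41 for the members and 0.01 for all genes. In 19 members every Adam17ex library lay under every WT library, as in 7.92% of all genes. The reverse held for 2, against 9.64%. Those lower were Actb, Actg1, Arpc5, Arpc5l, Wdr1, Coro1c, Tpm1, Tpm3, Actn1, Lasp1, Zyx and Ezr. Of these, 4 (Actg1, Lasp1, Zyx and Ezr) passed under all 28 other settings tried. With females only, 5 members were lower (Actg1, Actn1, Lasp1, Zyx and Ezr), and with all libraries thinned to equal depth 7 were (Actb, Actg1, Tpm1, Tpm3, Lasp1, Zyx and Ezr). Males made up 0 of 4 WT PBS, 1 of 4 WT cerulein and 2 of 4 libraries in each Adam17ex group, so sex is a term of every fit except where stated.

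Under PBS, 1 member, Zyx, was higher in Adam17ex and 0 were lower, against 0.631% and 0.729% of all genes. At an unadjusted p under 0.05, 6 members were higher by edgeR, 6 by DESeq2 and 7 by limma-voom, and 0 were lower by any of them. Of all genes, 6.92% to 8.03% were higher and 7.13% to 8.72% lower at that threshold over these tools. The median was 0.22 for members and 0.03 for all genes, and 5 members had all Adam17ex libraries above all WT libraries (4.16% of all genes), and none the reverse (6.24%). Of the 45, 39 lay above 0. Values for markers of some other cells differed between the genotypes under PBS. Summed smooth muscle and pericyte markers stood at 44.1 to 64.9 CPM in WT and 67.6 to 217.0 in Adam17ex, and endothelial markers at 54.4 to 69.3 and 89.9 to 166.8, without overlap. The pericyte marker Rgs5 was higher in Adam17ex (1.32 ± 0.29, edgeR adjusted p = 0.0298). Median log2 differences were 1.16 over 5 tested fibroblast, 0.95 over 5 macrophage, 0.82 over 4 endothelial, 0.81 over 5 islet and 1.20 over 3 adipocyte markers, of which none passed, and 0.00 over 8 acinar and 0.16 over 4 duct markers, of which none passed either. Their part in the member values was not tested.

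The difference between the cerulein responses of the genotypes (the interaction) was below 0 and past the threshold for 11 members and above 0 for 0, against 2.27% and 3.75% of all genes (6.02% in either direction). At an unadjusted p under 0.05, 1 member was above 0 by each of the 3 tools. Below 0 there were 21 by edgeR, 21 by DESeq2 and 22 by limma-voom. Of all genes, 12.4% were above 0 and 9.49% below 0 at that threshold by edgeR. The median over all 45 was -0.69, against -0.01 for all genes. The 11 members past the adjusted threshold were Actb, Actg1, Wdr1, Tpm1, Tpm3, Myh9, Actn1, Lima1, Lasp1, Plec and Zyx. That count fell to 5 without Adam17ex PBS replicate 3, 5 without Adam17ex cerulein replicate 2 and 5 without replicate 3, to 6 without WT PBS replicate 1, WT cerulein replicate 2 or Adam17ex cerulein replicate 4, and to 7 without WT PBS replicate 3, WT PBS replicate 4 or WT cerulein replicate 3. The call was lost in 17 of the 27 other settings for Actb, 16 for Plec, 14 each for Tpm1, Actn1 and Lima1, 8 for Tpm3, 5 for Wdr1, 3 for Myh9 and 1 each for Actg1 and Lasp1. Zyx passed in all 27. The 5 comparisons share libraries, so their values are given side by side and are not independent.

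Marker genes of other cells were followed in the same libraries. Summed ductal markers stood at 310 to 360 CPM in WT PBS and 895 to 1119 in WT cerulein libraries, and at 307 to 406 and 396 to 464 in Adam17ex. Summed acinar markers averaged 208069 CPM in WT PBS and 137088 in WT cerulein, and 206929 and 187416 in Adam17ex. Smooth muscle and pericyte markers were lower under cerulein in WT, at 44.1 to 64.9 and 28.8 to 38.0 CPM. Macrophage and monocyte markers overlapped in WT, at 56.7 to 379.8 CPM under PBS and 143 to 213 under cerulein, and neutrophil markers stayed at or under 36.5 CPM in every library. Under cerulein in WT, 3 of 4 tested duct and 1 of 5 macrophage markers rose, and 4 of 8 acinar, 1 of 4 duct, 1 of 5 fibroblast, 1 of 4 endothelial and 3 of 3 adipocyte markers fell, where 21.3% of all genes fell and 19.8% rose. In Adam17ex 1 duct marker rose, and 4 fibroblast, 3 macrophage, 5 of 5 islet, 2 adipocyte, 1 endothelial and 1 smooth muscle marker fell, where 16.2% of all genes fell and 14.1% rose. Between genotypes under cerulein, 3 of 4 duct markers were lower in Adam17ex and 1 was higher, 2 of 8 acinar markers were higher and 1 of 5 macrophage markers was lower. Of all genes, 3.85% were lower and 5.85% higher in that comparison. No neutrophil or B and T cell marker had enough counts for a test. The part of these markers in the member values was not tested.

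**Figure D2:**
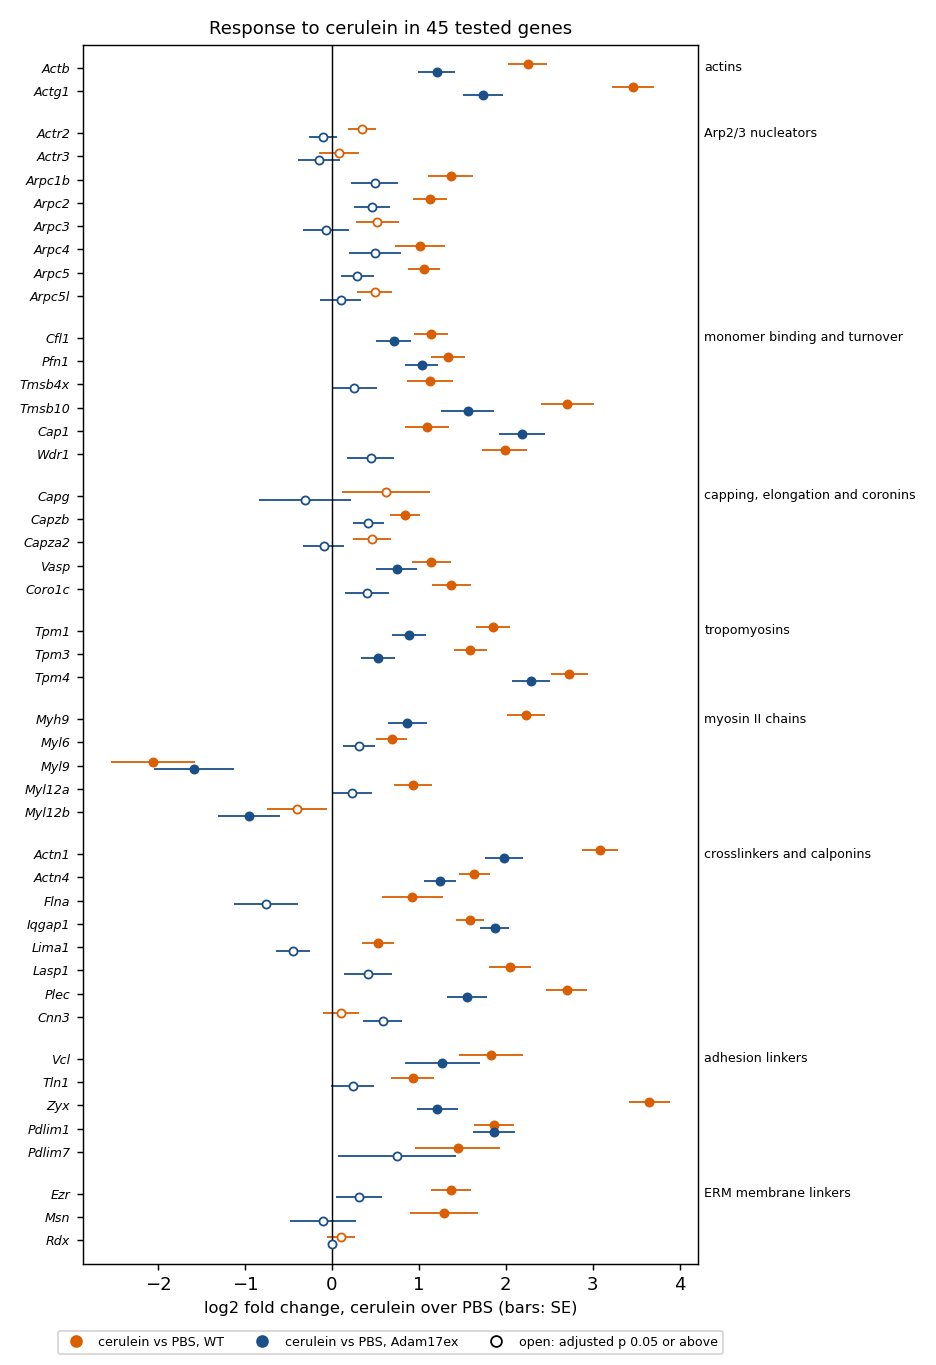
Log2 fold change under cerulein in WT and in Adam17ex for the 45 tested members, ordered by role, with SE bars and open symbols where the adjusted p was 0.05 or more. No bar is drawn for changes under 0.05 in size (Rdx in Adam17ex). For 41 of 45 genes the WT value lies to the right of the Adam17ex value, and for Cap1, Iqgap1, Cnn3 and Myl9 it lies to the left.

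Both non-muscle actins rose in both genotypes, and by less in Adam17ex. Counts of role groups, here and below, are to be read against the shares of all genes. Those were 19.8% higher and 21.3% lower in WT, and 14.1% and 16.2% in Adam17ex. Actb encodes beta-actin, the main filament subunit of non-muscle cells, and Actg1 encodes gamma-actin, a near-identical cytoplasmic form. Actb stood at 592, 558, 465 and 653 CPM in the WT PBS libraries and at 3259, 3388, 2420.4 and 2097 CPM in the WT cerulein libraries. It stood at 455, 539.6, 978 and 693 CPM under PBS and at 1489, 1646, 1446 and 1554 CPM under cerulein in Adam17ex. The treatments did not overlap in either genotype, and each Adam17ex cerulein library lay under each WT cerulein library. The log2 fold change was 2.25 ± 0.23 in WT (edgeR adjusted p = 5.57e-08) and 1.20 ± 0.22 in Adam17ex (0.000245). Under cerulein the log2 ratio of Adam17ex to WT was -0.90 ± 0.22 (adjusted p = 0.00849), and the interaction was -1.05 ± 0.31 (0.0443). Without WT cerulein replicate 1 the genotype difference was -0.86 (adjusted p = 0.0559). The interaction was lost without any 1 of the libraries (group and replicate number) WT PBS 1, 2, 3 and 4, WT cerulein 1, 2 and 3, Adam17ex PBS 3 and 4, and Adam17ex cerulein 1, 2, 3 and 4 (adjusted p 0.0572 to 0.114).

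Actg1, with a CArG box in its promoter, had the second highest WT response of all members. Its libraries stood at 168, 169.8, 189 and 199.7 CPM in the WT PBS libraries and at 2355, 1909, 1531 and 2153 CPM in the WT cerulein libraries. Adam17ex libraries stood at 172, 178, 348 and 276 CPM under PBS and at 985, 635, 683 and 984 CPM under cerulein. Again no treatment groups overlapped, and all Adam17ex cerulein libraries were under all WT ones. The log2 fold change was 3.47 ± 0.24 in WT (edgeR adjusted p = 2.94e-10) and 1.74 ± 0.23 in Adam17ex (6.57e-06). The genotype difference under cerulein was -1.27 ± 0.22 (adjusted p = 0.000530), and the interaction -1.73 ± 0.33 (0.00243). Under PBS the genotypes overlapped (0.46 ± 0.25, adjusted p = 0.361).

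Of the 8 Arp2/3 subunits, 4 rose under cerulein in WT, where 19.8% of all genes rose. In Adam17ex, where 14.1% of all genes rose, none passed, and the lowest adjusted p was 0.0966, for Arpc2. Arpc1b encodes a WD-repeat subunit of the complex, and Arpc2 forms its structural core with Arpc4. Arpc1b stood at 47.0, 71.5, 45.1 and 42.9 CPM in the WT PBS libraries and at 130.2, 152, 139 and 132 CPM in the WT cerulein libraries. In Adam17ex it was at 28.6, 31.0, 113 and 57.6 CPM under PBS and at 84.4, 80.0, 86.4 and 80.4 CPM under cerulein. WT treatments were apart, whereas Adam17ex treatments overlapped, with PBS replicate 3 the highest control. The log2 fold change was 1.36 ± 0.26 in WT (edgeR adjusted p = 0.000200) and 0.49 ± 0.27 in Adam17ex (0.182). Without that replicate the Adam17ex value was 1.05 (adjusted p = 0.00284), and Arpc2 (0.72) and Arpc4 (1.13) also passed. That library also had the highest macrophage and lymphocyte markers of its group.

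Arpc2 stood at 76.4, 117, 95.5 and 87.0 CPM in the WT PBS libraries and at 189, 264, 168 and 225 CPM in the WT cerulein libraries. Its Adam17ex libraries were at 114, 87.8, 157 and 81.8 CPM under PBS and at 159, 150.2, 140.5 and 146 CPM under cerulein. The pattern was that of Arpc1b: apart in WT (1.13 ± 0.20, edgeR adjusted p = 0.000100) and overlapping in Adam17ex (0.46 ± 0.21, 0.0966). Every Adam17ex cerulein library was under every WT cerulein library for both subunits, but neither genotype difference passed, at -0.78 ± 0.25 (adjusted p = 0.0513) for Arpc1b and -0.53 ± 0.20 (0.0912) for Arpc2. Arpc1b did pass in 12 of the 28 other settings, among them DESeq2 (adjusted p = 0.0428), limma-voom (0.0366), RLE and upper-quartile scaling.

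The genotype difference under cerulein did pass for Arpc5 and Arpc5l, alternative versions of the smallest subunit. Arpc5 stood at 45.8, 59.6, 48.3 and 66.2 CPM in the WT PBS libraries and at 120.3, 122, 98.9 and 117 CPM in the WT cerulein libraries. In Adam17ex, Arpc5 was at 44.2, 59.4, 76.3 and 66.7 CPM under PBS and at 73.8, 83.5, 64.8 and 83.1 CPM under cerulein. The cerulein libraries there were under all 4 of WT (log2 -0.57 ± 0.18, edgeR adjusted p = 0.0396). Leaving out any of 7 of the 8 cerulein libraries (all but WT cerulein replicate 3) took that adjusted p to 0.0563 to 0.171. Arpc5l stood at 44.7, 39.5, 29.4 and 38.0 CPM in the WT PBS libraries and at 52.5, 58.7, 51.6 and 52.1 CPM in the WT cerulein libraries. In Adam17ex, Arpc5l was at 28.6, 28.4, 24.1 and 30.3 CPM under PBS and at 17.9, 33.8, 31.2 and 36.1 CPM under cerulein. Its genotype difference under cerulein was -0.83 ± 0.21 (adjusted p = 0.00985). The cerulein groups did not overlap, and without Adam17ex cerulein replicate 1 the adjusted p was 0.0638. Under PBS the Arpc5l difference was -0.44 ± 0.25 (edgeR adjusted p = 0.386). The interaction did not pass for Arpc5 (-0.77 ± 0.26, 0.0860) or for Arpc5l (-0.39 ± 0.31, 0.494).

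Remaining subunits moved little or with wide spread. Arpc4 rose in WT (1.01 ± 0.29, adjusted p = 0.00742) and its levels under cerulein overlapped between genotypes (35.2 ± 5.69 and 35.8 ± 6.44 CPM). The actin-related proteins themselves, Actr2 and Actr3, were at 0.35 and 0.08 in WT, and Arpc3 at 0.52. None of these 3 passed in any of the 5 comparisons. Actr3 shares 21.2% of the windows in its last 500 bases with the pseudogene Gm8822, so its counts are uncertain.

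All 6 monomer-binding and turnover genes rose in WT, and 4 (Cfl1, Pfn1, Tmsb10 and Cap1) rose in Adam17ex. Tmsb10 encodes thymosin beta-10, a monomer-sequestering peptide. It stood at 58.8, 101, 28.3 and 49.0 CPM in the WT PBS libraries and at 364, 436, 380.4 and 409 CPM in the WT cerulein libraries. In Adam17ex, Tmsb10 was at 59.8, 77.5, 171 and 71.7 CPM under PBS and at 318, 287, 219.7 and 292 CPM under cerulein. Neither genotype's treatments overlapped. The log2 response was 2.71 ± 0.30 in WT (edgeR adjusted p = 2.72e-07) and 1.56 ± 0.30 in Adam17ex (0.000445), and the interaction did not pass (-1.15 ± 0.42, 0.108). Of its last 500 bases, 31% of windows also match Gm9844 or Gm3788, so part of its count may be theirs.

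Wdr1 encodes a cofactor of cofilin in taking filaments apart. It stood at 16.5, 24.6, 12.6 and 13.5 CPM in the WT PBS libraries and at 98.6, 68.7, 63.8 and 69.4 CPM in the WT cerulein libraries. Adam17ex libraries were at 18.2, 12.9, 46.2 and 30.3 CPM under PBS and at 41.1, 38.2, 46.8 and 30.7 CPM under cerulein. The WT groups were well apart (1.99 ± 0.26, edgeR adjusted p = 1.94e-06), and the Adam17ex groups overlapped (0.45 ± 0.27, 0.220). Under cerulein Adam17ex was lower in every library (-1.04 ± 0.23, adjusted p = 0.00416). The interaction was -1.54 ± 0.38 (adjusted p = 0.0168), and it missed the threshold without Adam17ex PBS replicate 3, Adam17ex PBS replicate 4 or Adam17ex cerulein replicate 2, at adjusted p = 0.0563, 0.0636 and 0.0521.

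Cap1, which recycles cofilin-bound monomers, was the 1 member higher in Adam17ex than in WT under cerulein. It stood at 16.5, 13.4, 17.8 and 22.1 CPM in the WT PBS libraries and at 32.6, 43.2, 39.4 and 36.4 CPM in the WT cerulein libraries. The Adam17ex libraries were at 23.4, 23.2, 10.0 and 19.2 CPM under PBS and at 58.0, 117, 94.8 and 78.3 CPM under cerulein. Cerulein libraries were above PBS libraries in both genotypes, and all 4 Adam17ex cerulein libraries were above all 4 WT ones. In log2 terms the response was 1.09 ± 0.26 in WT (edgeR adjusted p = 0.00154), 2.19 ± 0.26 in Adam17ex (2.09e-06), and 1.14 ± 0.22 between genotypes under cerulein (0.00154). The interaction did not pass (1.10 ± 0.38, 0.0851). With females only, the genotype difference was 0.80 (adjusted p = 0.0819), and at equal depth 0.92 (0.164).

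Profilin-1 (Pfn1), which feeds monomers to growing ends, rose in WT (1.34 ± 0.19) and Adam17ex (1.03 ± 0.19) to 484 ± 76.6 and 459 ± 52.5 CPM, levels that overlapped. Cofilin-1 (Cfl1), which severs filaments, also rose in both (1.14 and 0.71), though its Adam17ex groups overlapped. The Adam17ex call for Cfl1 was lost at equal depth (adjusted p = 0.106) and without the 3 shallow libraries (0.0550). Thymosin beta-4 (Tmsb4x) rose in WT (1.12 ± 0.26, adjusted p = 0.00158) and was at 0.26 ± 0.26 in Adam17ex (0.484).

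Among 5 tested capping, elongation and coronin genes, Coro1c, Vasp and Capzb rose in WT, and Vasp did in Adam17ex. Of all genes, 19.8% and 14.1% rose in these comparisons. Coro1c encodes coronin-1C, a coronin that acts on branched networks. It stood at 19.98, 17.9, 13.6 and 30.6 CPM in the WT PBS libraries and at 59.7, 56.5, 49.4 and 51.3 CPM in the WT cerulein libraries. Its Adam17ex levels were 20.8, 23.2, 28.1 and 17.2 CPM under PBS and 33.8, 30.2, 27.6 and 24.5 under cerulein. The WT treatments separated (1.37 ± 0.22, edgeR adjusted p = 3.44e-05), the Adam17ex ones overlapped (0.41 ± 0.26, 0.238), and the 2 genotypes separated under cerulein (-0.94 ± 0.21, 0.00440). The genotype difference was lost with females only (adjusted p = 0.120) and at equal depth (0.0969). The interaction did not pass (-0.97 ± 0.34, 0.0948).

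Vasp, which elongates filaments at their growing ends, stood at 24.7, 35.7, 17.8 and 17.2 CPM in the WT PBS libraries and at 57.0, 62.0, 47.99 and 62.0 CPM in the WT cerulein libraries. It was at 44.2, 23.2, 36.2 and 25.3 CPM under PBS and at 49.6, 58.7, 58.8 and 44.96 CPM under cerulein in Adam17ex. Treatments were apart in both genotypes, at 1.14 ± 0.22 in WT (edgeR adjusted p = 0.000280) and 0.74 ± 0.24 in Adam17ex (0.0202). Cerulein levels of the genotypes overlapped. Without Adam17ex PBS replicate 4 the adjusted p in Adam17ex was 0.0552. The capping protein subunit Capzb rose in WT (0.84 ± 0.17, adjusted p = 0.000507) and was at 0.42 ± 0.18 in Adam17ex (0.0865). Its partner Capza2 (0.46 in WT) and Capg (0.62), a gelsolin-related capper, passed in no comparison.

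All 3 tropomyosins, which coat filaments and set which proteins may bind them, rose in both genotypes. Tpm4 responded most. It stood at 38.8, 36.5, 38.8 and 24.5 CPM in the WT PBS libraries and at 279, 235, 221 and 213 CPM in the WT cerulein libraries. In Adam17ex, Tpm4 was at 28.6, 25.8, 52.2 and 41.4 CPM under PBS and at 233, 171, 184 and 161 CPM under cerulein. Treatments were far apart in both genotypes, and the genotypes overlapped within each treatment. On the log2 scale, cerulein gave 2.73 ± 0.21 in WT (edgeR adjusted p = 1.04e-09) and 2.29 ± 0.22 in Adam17ex (8.08e-08), with an interaction of -0.44 ± 0.30 (0.417).

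Tpm1 stood at 89.3, 97.5, 129 and 121 CPM in the WT PBS libraries and at 446, 461, 349 and 303 CPM in the WT cerulein libraries. The Adam17ex levels were 104, 129, 145 and 119 CPM under PBS and 285, 204, 189.7 and 240.4 under cerulein. Here the Adam17ex cerulein libraries lay between their controls and the WT cerulein libraries without touching either. Fitted log2 responses were 1.85 ± 0.19 in WT (edgeR adjusted p = 1.06e-07) and 0.88 ± 0.19 in Adam17ex (0.00152), and the interaction was -0.97 ± 0.27 (0.0367), which was lost without any 1 of WT PBS 1, 2 and 4, WT cerulein 1 and 2, Adam17ex PBS 2 and 3, and Adam17ex cerulein 2, 3 and 4 (adjusted p 0.0554 to 0.113). The genotype difference under cerulein, -0.75 ± 0.18 (adjusted p = 0.00949), did not pass without WT cerulein replicate 1 (-0.61, 0.112).

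Tpm3 stood at 45.8, 67.0, 43.0 and 51.5 CPM in the WT PBS libraries and at 139, 171, 158 and 155 CPM in the WT cerulein libraries. It was at 46.8, 51.6, 86.4 and 71.7 CPM under PBS and at 93.9, 89.8, 88.8 and 106 CPM under cerulein in Adam17ex. Its groups were ordered as those of Tpm1, again with no overlap, at 1.59 ± 0.19 in WT (edgeR adjusted p = 6.28e-07), 0.53 ± 0.20 in Adam17ex (0.0428) and -1.06 ± 0.27 for the interaction (0.0215). The interaction was lost without any 1 of WT PBS 3, Adam17ex PBS 3 and 4, and Adam17ex cerulein 2 and 3 (adjusted p 0.0510 to 0.0613). The Adam17ex rise did not pass without any 1 of Adam17ex PBS replicates 1 and 2 and Adam17ex cerulein replicates 2, 3 and 4 (adjusted p 0.0591 to 0.114). The copy Tpm3-rs7 shares 34.5% of the windows at its 3′ end, which leaves its counts uncertain.

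**Figure D3:**
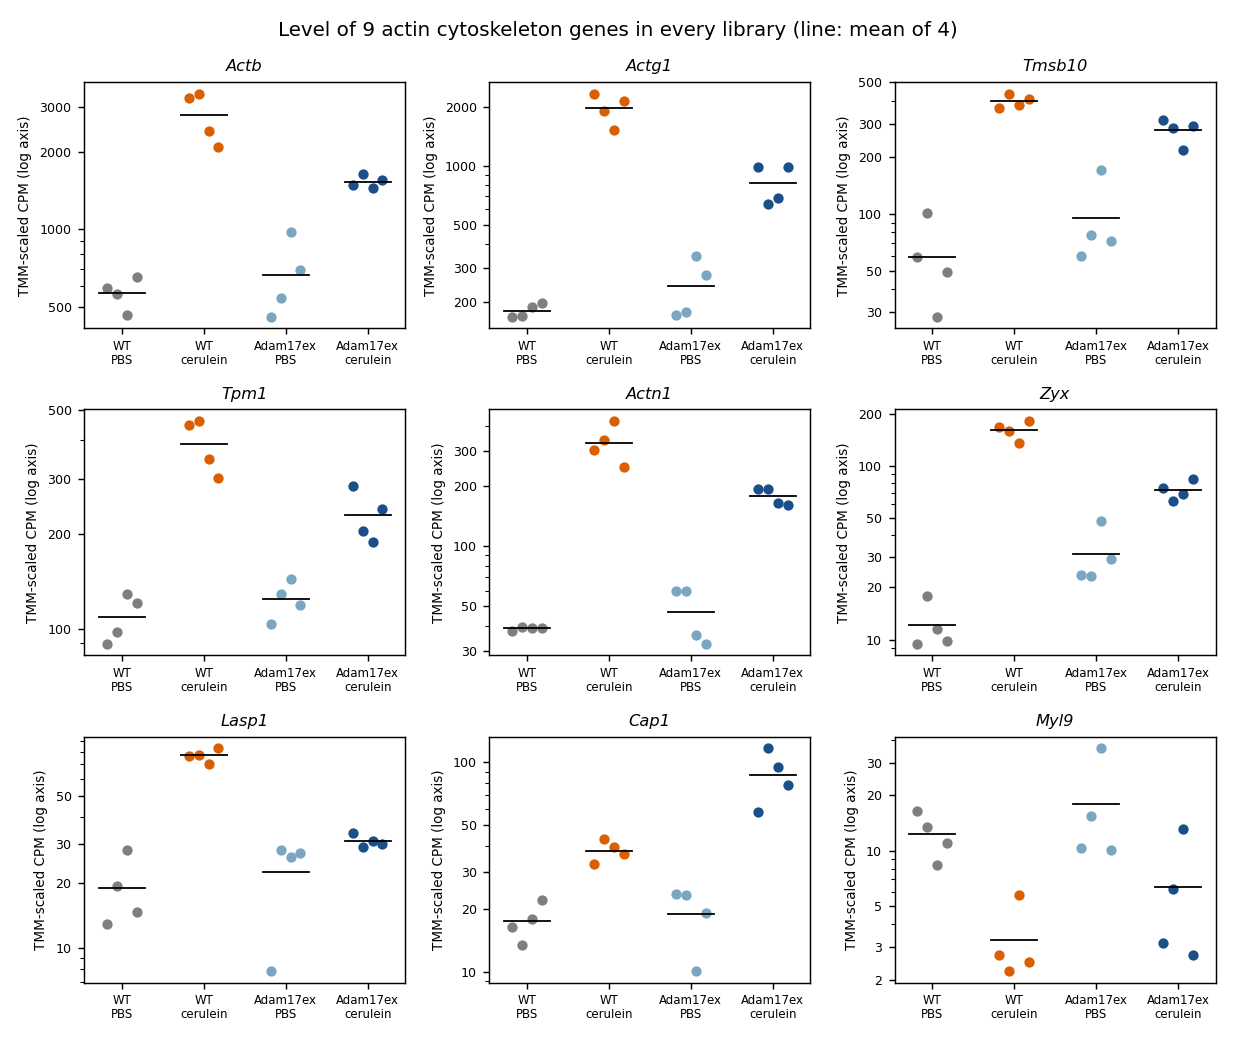
TMM-scaled CPM (log axis) of 9 members in each of the 16 libraries, by group, with a line at each group mean. Adam17ex cerulein points lie between the Adam17ex PBS and WT cerulein points for Actb, Actg1, Tpm1, Actn1 and Zyx, and above the WT cerulein points for Cap1. For Myl9 the cerulein mean is under the PBS mean in both genotypes, and the Adam17ex treatments overlap.

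The chains of myosin II divided. The heavy chain and light chains Myl6 and Myl12a rose in WT, Myl9 fell, and Myl12b did not pass there. Myh9 encodes the heavy chain of non-muscle myosin IIA, the motor itself. It stood at 49.4, 51.4, 48.3 and 49.0 CPM in the WT PBS libraries and at 249.6, 271, 219 and 200.04 CPM in the WT cerulein libraries. In Adam17ex, Myh9 was at 98.8, 90.4, 102 and 61.6 CPM under PBS and at 238, 147, 131 and 118 CPM under cerulein. Treatments were apart in both genotypes, and under PBS all Adam17ex libraries were above all WT libraries without passing the test (0.79 ± 0.25, edgeR adjusted p = 0.106). The log2 response was 2.23 ± 0.22 in WT (adjusted p = 4.65e-08) and 0.87 ± 0.22 in Adam17ex (0.00466), with an interaction of -1.36 ± 0.31 (0.0120). Cerulein levels of the genotypes overlapped (-0.58 ± 0.20, 0.0753).

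Myl9 encodes the regulatory light chain typical of smooth muscle, and has a CArG box in its promoter. Its UMIs were few: 14, 18, 8 and 9 in WT PBS and 3, 2, 8 and 3 in WT cerulein libraries. Adam17ex libraries had 4, 6, 18 and 10 under PBS and 3, 7, 11 and 4 under cerulein. Scaled levels were 12.3 ± 3.43 and 3.28 ± 1.64 CPM in WT, which did not overlap, and 18.0 ± 12.3 and 6.33 ± 4.84 in Adam17ex, which did. Myl9 fell in both, with a log2 fold change of -2.06 ± 0.49 in WT (edgeR adjusted p = 0.00160) and -1.59 ± 0.46 in Adam17ex (0.0114). Without Adam17ex PBS replicate 3, which had the highest smooth muscle markers, the Adam17ex value was -1.08 (adjusted p = 0.143). It was -1.35 (0.0524) without Adam17ex cerulein replicate 4. The summed smooth muscle and pericyte markers, 7 genes of which 1 could be tested and none was at 0 in all libraries, were also lower under cerulein in Adam17ex, at 67.6 to 217.0 CPM and 48.9 to 73.2 CPM. Their part in the fall of Myl9 was not tested.

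Myl6, the essential light chain, rose in WT (0.69 ± 0.18, adjusted p = 0.00444), and so did the regulatory chain Myl12a (0.94 ± 0.22, 0.00153), although its WT groups overlapped. Neither passed in Adam17ex (0.31 and 0.23). Myl12b, a close relative of Myl12a, was at -0.41 ± 0.34 in WT (adjusted p = 0.365) and fell in Adam17ex (-0.95 ± 0.36, 0.0472). That call was lost in 18 of the 28 other settings, including without any 1 of WT PBS 1, 2, 3 and 4, WT cerulein 2, Adam17ex PBS 2, 3 and 4, and Adam17ex cerulein 1, 2 and 3 (adjusted p 0.0506 to 0.191).

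Crosslinkers responded unevenly. Of 8 tested, 7 rose in WT (all but Cnn3) and 4 in Adam17ex (Actn1, Actn4, Iqgap1 and Plec). Actn1 encodes alpha-actinin-1, which bundles filaments at adhesions and stress fibres. It stood at 37.6, 39.5, 38.8 and 39.2 CPM in the WT PBS libraries and at 304, 339, 425 and 250.5 CPM in the WT cerulein libraries. Adam17ex stood at 59.8, 59.4, 36.2 and 32.3 CPM under PBS and at 193, 193, 164 and 161 CPM under cerulein. No groups overlapped between treatments, nor between genotypes under cerulein. In log2 terms the response was 3.08 ± 0.21 in WT (edgeR adjusted p = 1.91e-10) and 1.98 ± 0.22 in Adam17ex (6.58e-07). The genotype difference under cerulein was -0.89 ± 0.19 (adjusted p = 0.00336) and the interaction -1.10 ± 0.30 (0.0316). The interaction was lost without any 1 of WT PBS 1, 3 and 4, WT cerulein 2 and 3, Adam17ex PBS 1 and 2, and Adam17ex cerulein 2, 3 and 4 (adjusted p 0.0515 to 0.0843).

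Plec encodes plectin, which joins actin to intermediate filaments. It stood at 44.7, 48.4, 53.5 and 42.9 CPM in the WT PBS libraries and at 279, 289, 312 and 355 CPM in the WT cerulein libraries. Plec in Adam17ex was at 125, 56.8, 78.4 and 62.6 CPM under PBS and at 333, 224, 179 and 195 CPM under cerulein. Treatments were apart in both genotypes, the genotypes overlapped under cerulein, and under PBS every Adam17ex library was above every WT one. On the log2 scale, cerulein gave 2.70 ± 0.23 in WT (edgeR adjusted p = 6.12e-09) and 1.55 ± 0.23 in Adam17ex (2.95e-05). The interaction passed (-1.15 ± 0.33, 0.0383), the PBS difference did not (0.74 ± 0.27, 0.155). The interaction was lost without any 1 of WT PBS 1, 2, 3 and 4, WT cerulein 2, 3 and 4, Adam17ex PBS 1 and 3, and Adam17ex cerulein 2, 3 and 4 (adjusted p 0.0516 to 0.114).

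Lasp1, a LIM and SH3 domain protein of dynamic actin sites, stood at 12.9, 19.4, 28.3 and 14.7 CPM in the WT PBS libraries and at 76.9, 77.5, 70.2 and 83.5 CPM in the WT cerulein libraries. Adam17ex libraries were at 7.80, 28.4, 26.1 and 27.3 CPM under PBS and at 33.8, 29.3, 31.2 and 30.0 CPM under cerulein. The Adam17ex cerulein libraries were above their controls by a small margin, and far under all WT cerulein libraries. The fitted log2 response was 2.05 ± 0.24 in WT (edgeR adjusted p = 5.03e-07) and 0.42 ± 0.27 in Adam17ex (0.260). Between genotypes under cerulein it was -1.27 ± 0.22 (0.000530), and the interaction was -1.63 ± 0.37 (0.0106).

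Lima1, which encodes EPLIN, a bundling protein at cell junctions, had the smallest WT rise of the 11 members that passed for the interaction. It stood at 34.1, 38.7, 49.3 and 39.2 CPM in the WT PBS libraries and at 55.2, 66.5, 56.6 and 59.5 CPM in the WT cerulein libraries. It was at 54.6, 56.8, 62.3 and 63.6 CPM under PBS and at 45.4, 52.4, 48.02 and 32.0 CPM under cerulein in Adam17ex. WT cerulein libraries lay above and Adam17ex cerulein libraries below their own controls, with no overlap on either side. The log2 response was 0.53 ± 0.19 in WT (edgeR adjusted p = 0.0264) and -0.45 ± 0.19 in Adam17ex (0.0852), and the interaction -0.98 ± 0.27 (0.0316). The WT call was lost without WT PBS replicate 1 (adjusted p = 0.0743) or WT cerulein replicate 2 (0.0812), and the interaction without any 1 of WT PBS 1, 2 and 4, WT cerulein 2, 3 and 4, Adam17ex PBS 3 and 4, and Adam17ex cerulein 3 and 4 (adjusted p 0.0509 to 0.0735).

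Actn4, a second alpha-actinin, and Iqgap1, a scaffold for Rac1 and Cdc42, rose in both genotypes. Actn4 was at 1.64 ± 0.18 in WT and 1.25 ± 0.18 in Adam17ex. Iqgap1 was at 1.59 ± 0.16 and 1.87 ± 0.16, and all its Adam17ex cerulein libraries were above the WT ones, though the difference did not pass (0.43 ± 0.15, adjusted p = 0.0770). It passed with limma-voom (adjusted p = 0.0366) and without the sex term (0.0426). Filamin A (Flna), which crosslinks filaments at angles, rose in WT (0.92 ± 0.35, 0.0386) and was at -0.76 ± 0.37 in Adam17ex (0.126). Its interaction of -1.68 ± 0.51 had an adjusted p of 0.0520. The WT rise of Flna was lost without WT PBS replicate 1, 3 or 4, or without WT cerulein replicate 2 or 3 (adjusted p 0.0552 to 0.145). Calponin-3 (Cnn3) was at 0.10 in WT and 0.58 in Adam17ex (adjusted p = 0.0525).

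All 5 adhesion linkers rose in WT, Pdlim7 on few UMIs, and Zyx, Pdlim1 and Vcl rose in Adam17ex. Zyx encodes zyxin, a LIM protein recruited to adhesions and stress fibres under tension. It stood at 9.40, 17.9, 11.5 and 9.80 CPM in the WT PBS libraries and at 166, 158, 135 and 182 CPM in the WT cerulein libraries. In Adam17ex, Zyx was at 23.4, 23.2, 48.2 and 29.3 CPM under PBS and at 74.9, 63.1, 68.4 and 84.5 CPM under cerulein. The 4 groups formed 4 separate levels, from WT PBS through Adam17ex PBS and Adam17ex cerulein to WT cerulein. In log2 terms the response was 3.65 ± 0.24 in WT (edgeR adjusted p = 8.65e-11), the highest of all members, and 1.21 ± 0.23 in Adam17ex (0.000458). Adam17ex was higher under PBS (1.31 ± 0.30, 0.0331) and lower under cerulein (-1.14 ± 0.19, 0.000411). The interaction was -2.44 ± 0.34 (adjusted p = 0.000162), the furthest from 0 among the members. The PBS difference was lost when any of 6 libraries was left out (WT PBS 1, 3 or 4, WT cerulein 1, Adam17ex PBS 3 or Adam17ex cerulein 3). It was also lost without the 3 shallow Adam17ex PBS libraries (1.20, adjusted p = 0.319).

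Pdlim1, a PDZ and LIM protein that binds alpha-actinin, rose in both genotypes. It stood at 21.2, 34.3, 27.3 and 28.2 CPM in the WT PBS libraries and at 99.5, 116, 81.7 and 95.1 CPM in the WT cerulein libraries. Adam17ex libraries were at 10.4, 31.0, 26.1 and 41.4 CPM under PBS and at 93.9, 104, 87.6 and 132 CPM under cerulein. Treatments were apart and genotypes overlapped. On the log2 scale, cerulein gave 1.87 ± 0.23 in WT (edgeR adjusted p = 1.08e-06) and 1.86 ± 0.24 in Adam17ex (6.22e-06), and the interaction was -0.01 (0.996).

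Vinculin (Vcl), which links talin to actin and has a CArG box, rose in WT (1.83 ± 0.37, adjusted p = 0.000342) and in Adam17ex (1.27 ± 0.43, 0.0276). The Adam17ex call was lost without Adam17ex PBS replicate 1, Adam17ex PBS replicate 3 or Adam17ex cerulein replicate 1 (adjusted p = 0.0628, 0.0541 and 0.0819). Talin-1 (Tln1), which binds integrin tails, rose in WT (0.93 ± 0.25, 0.00447) and its levels under cerulein overlapped between genotypes (58.0 ± 6.03 and 60.8 ± 14.2 CPM). Pdlim7, another PDZ and LIM protein, had few UMIs: 6, 8, 3 and 0 in WT PBS and 10, 12, 15 and 17 in WT cerulein libraries. Adam17ex libraries had 0, 1, 3 and 3 under PBS and 3, 6, 6 and 8 under cerulein. Pdlim7 passed the count filter through the WT cerulein libraries alone, so its WT rise (1.45 ± 0.49, 0.0217) draws on the group that let it in. That call was lost without WT PBS replicate 3 or 4 or WT cerulein replicate 2 or 4 (adjusted p 0.0523 to 0.0651).

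**Figure D4:**
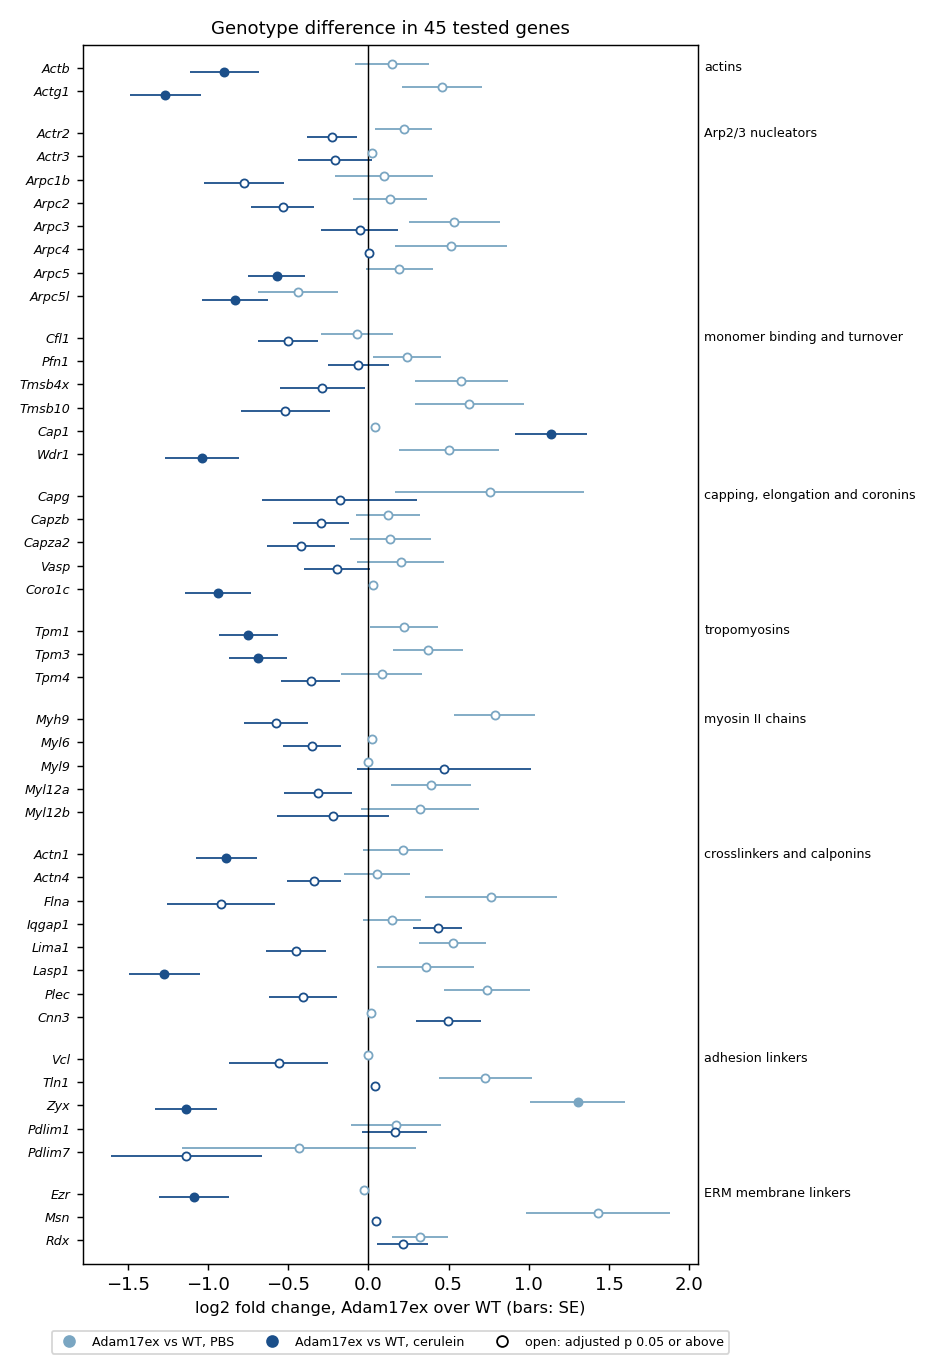
Log2 difference of Adam17ex from WT under PBS and under cerulein for the 45 tested members, with SE bars and open symbols where the adjusted p was 0.05 or more. No bar is drawn for differences under 0.05 in size, which are no more exact than the others. Under cerulein 36 of 45 points lie below 0 and under PBS 39 lie above it. Both differences enter the interaction.

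Ezrin and moesin rose in WT, and no ERM gene passed in Adam17ex, where 14.1% of all genes rose. ERM proteins tie the actin cortex to membrane proteins, ezrin mainly at the apical side of epithelia. Ezr stood at 25.9, 24.6, 26.2 and 18.4 CPM in the WT PBS libraries and at 65.1, 50.9, 53.7 and 86.0 CPM in the WT cerulein libraries. In Adam17ex, Ezr was at 23.4, 28.4, 26.1 and 23.2 CPM under PBS and at 33.8, 33.8, 40.8 and 19.8 CPM under cerulein. Only the WT treatments were apart (1.37 ± 0.23, edgeR adjusted p = 4.55e-05, against 0.31 ± 0.26 in Adam17ex, 0.397). Under cerulein Adam17ex was lower in every library (-1.09 ± 0.22, 0.00203). The interaction did not pass (-1.06 ± 0.35, 0.0737).

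Msn, the moesin gene, stood at 14.1, 24.6, 2.10 and 13.5 CPM in the WT PBS libraries and at 25.3, 43.2, 28.7 and 36.4 CPM in the WT cerulein libraries. It was at 23.4, 33.6, 56.3 and 26.3 CPM under PBS and at 54.9, 23.1, 22.8 and 30.7 CPM under cerulein in Adam17ex. Adam17ex PBS replicate 3 was the highest of the group. WT rose (1.29 ± 0.39, edgeR adjusted p = 0.0109) and Adam17ex did not pass (-0.10 ± 0.38, 0.868). Under PBS the Adam17ex mean was higher without passing (1.43 ± 0.45, 0.0991). Radixin (Rdx) passed in no comparison, at 0.10 in WT, with 121 ± 14.5 and 127 ± 7.40 CPM.

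Ratios of related genes were compared within the same libraries. The log2 ratio of Actg1 to Actb averaged -1.63 in WT PBS and -0.48 in WT cerulein libraries, a change of 1.15 with no overlap (exact two-sided permutation p = 0.0286, adjusted 0.0857 over 15 tests). In Adam17ex it averaged -1.45 and -0.93, with overlap. The log2 ratio of Tmsb10 to Tmsb4x was higher under cerulein by 1.72 in WT and by 1.26 in Adam17ex, each without overlap. The ratio of Myl12a to Myl12b was higher by 1.40 in WT, and that of Arpc5l to Arpc5 lower by 0.55, both without overlap. Ezr to Msn overlapped in both genotypes. With 4 libraries against 4 the smallest p this test can give is 0.0286, and 0 of the 15 ratios passed after adjustment.

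**Figure D5:**
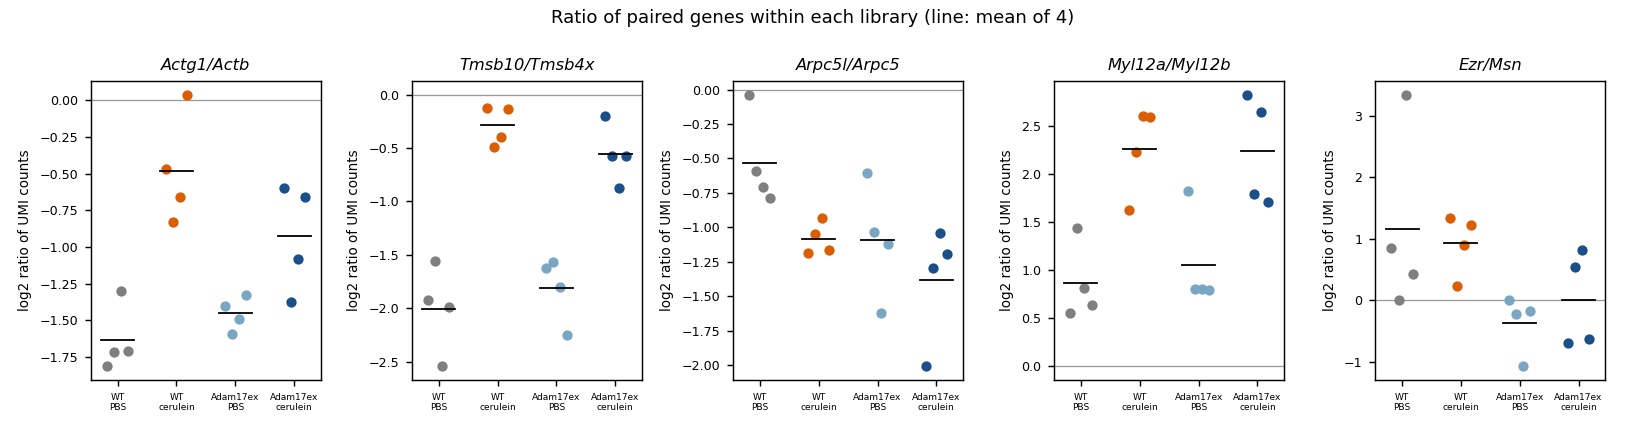
Log2 count ratio of 5 pairs of related genes in each library, by group, with a line at each group mean. The Actg1 to Actb and Tmsb10 to Tmsb4x ratios are higher under cerulein in WT with no overlap.

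Regulators of actin outside the 48 genes were followed through lists of pathway genes. Their counts are to be read against the shares of all genes, 19.8% higher and 21.3% lower in WT and 14.1% and 16.2% in Adam17ex. Among kinases and phosphatases of actin and myosin, 6 of 10 rose in WT, with the myosin-activating kinases Rock1 (0.42 ± 0.16) and Rock2 (0.97 ± 0.19) and the Rac1 and Cdc42 effectors Pak2 (1.08 ± 0.20) and Pak4 (1.13 ± 0.32) among them. In Adam17ex 3 rose and 1 fell. Ppp1r12a, which targets myosin phosphatase to myosin, was higher in Adam17ex than in WT under cerulein (0.60 ± 0.18).

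Among formins and nucleation promoting factors, 6 of 11 rose in WT and 3 in Adam17ex. The formin Inf2 had the highest estimate in WT (3.46 ± 0.60), on 95 UMIs over all 16 libraries. It stood at 0 to 2.10 CPM in WT PBS, 12.7 to 17.2 in WT cerulein and 2.11 to 6.13 in Adam17ex cerulein libraries. The genotype difference under cerulein was -1.99 ± 0.49 (edgeR adjusted p = 0.00952). Inf2 passed the count filter through the WT cerulein libraries alone, so both values draw on the group that let it in. Cortactin (Cttn), which holds branch points, rose by 1.80 ± 0.27 in WT. Of 3 tested SRF and MRTF genes, Srf itself rose in WT (2.39 ± 0.34, adjusted p = 7.06e-06). It stood at 3.53, 5.96, 3.15 and 6.13 CPM in the WT PBS libraries and at 47.0, 19.9, 22.2 and 23.1 CPM in the WT cerulein libraries. In Adam17ex its libraries were at 5.20, 7.75, 6.03 and 7.07 CPM under PBS and at 20.04, 17.8, 15.6 and 17.7 CPM under cerulein, with a log2 fold change of 1.40 ± 0.38 (0.00734). The WT groups and the Adam17ex groups were each apart. Srf passed the count filter through cerulein libraries alone, so both of its responses and this separation draw on the groups that let it in. Filip1l rose by 1.17 ± 0.36 in WT, and Mrtfb was at -0.07.

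Among other capping, severing and bundling genes, 6 of 12 rose in WT, including destrin (Dstn, 2.82 ± 0.25), a relative of cofilin, and Marcks (1.45 ± 0.18). In Adam17ex 4 rose, and Gsn, Twf2 and Lcp1 fell. Marcks, a filament-binding substrate of protein kinase C, was lower in Adam17ex under cerulein (-0.92 ± 0.18) with an interaction of -1.43 ± 0.26. Twf2 was lower too (-1.35 ± 0.36), on few counts (136 UMIs over all 16 libraries), at 2.72 to 8.40 CPM against 9.31 to 14.5 CPM in WT. Under PBS, Gsn was higher in Adam17ex (0.94 ± 0.21). Other myosins counted 7 of 10 higher and 1 lower (Myo6, -1.36 ± 0.29) in WT, with Myo1c at 2.48 ± 0.24 and Myo5a at 2.15 ± 0.43, and 3 higher and 2 lower in Adam17ex. Myo5a had few counts (181 UMIs over all 16 libraries), at 1.05 to 8.19 CPM in WT PBS and 14.5 to 18.8 CPM in WT cerulein libraries. Under cerulein Myo6 was higher in Adam17ex than in WT (1.21 ± 0.30), and the interaction passed for Myo5a (-2.21 ± 0.60). Integrin adhesion genes counted 6 of 14 higher and 2 lower (Tln2 and Tns1) in WT, with Itga3 (2.28 ± 0.31), Itgb4 (2.24 ± 0.28) and the adaptor Bcar1 (2.22 ± 0.30) the steepest, and 5 higher and 2 lower in Adam17ex. Itga3 passed the count filter through cerulein libraries alone, so its rise and its rank draw on the groups that let it in. Between genotypes under cerulein, Itga3 (-0.93 ± 0.26) and Itgb4 (-1.07 ± 0.25) were lower in Adam17ex. Fermt2, the integrin activator kindlin-2, was higher (0.83 ± 0.16). The interaction passed below 0 for Itgb4 (-1.45 ± 0.42) and above 0 for Fermt2 (0.84 ± 0.25). Septins, filament-forming GTPases that associate with actin, counted 2 of 4 higher in WT and 1 in Adam17ex.

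Coro1b, Vil1 and Cnn2 had too few counts for a test, with 13, 17 and 117 UMIs over all 16 libraries. Villin-1 (Vil1) is a bundler of microvilli, and calponin-2 (Cnn2) a non-muscle calponin. In Coro1b, 83% of the 3′ windows also lie in Ptprcap, so that its few counts are uncertain as well.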

How the data were processed

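RNA of 16 pancreas samples was sequenced from the poly(A) end with a 10-base UMI and a 101-base read, per the labels' protocols. The authors deposited whole-number counts per gene and library, with no normalization. Builds GRCm38 and mm10 and the tools edgeR 3.36.0, limma 3.50.0 and R 4.1.2 stand in the submitters' processing notes. How reads were aligned, counted and collapsed by UMI is not given in the sources used here. Counts come mostly from 3′ ends, and isoforms with a common end cannot be separated. Depth was 455547 to 1476159 UMIs, where 1 UMI equals 2.20 to 0.677 CPM before TMM scaling. Within-group library pairs differed by more than sampling noise in all 24 cases (chi-square per degree of freedom 3.09 to 10.6). That cannot show whether libraries come from separate mice. Each library was treated as 1 replicate.

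Counts were analysed with edgeR 4.0.16 in R 4.3.3. The filter filterByExpr (minimum count 10) left 8236 of 24019 genes, which were scaled by TMM. A quasi-likelihood model with a term per group and for sex was fitted over 16 libraries (11 residual degrees of freedom). Calls needed a p under 0.05 after Benjamini-Hochberg adjustment over all tested genes. Values are log2 fold changes from that model ± SE, and levels are CPM as mean ± SD (n = 4). The SE is the absolute log2 fold change divided by the square root of the test's F statistic. It is unreliable for very small changes. The scripts were tested on simulated data. Ratios of related genes used counts plus 0.5 and exact permutation tests. Windows of 101 bases in the last 500 bases of each transcript, from GENCODE M21, were searched for copies in other genes, and 46 of 48 members had the same coordinates there. Members and lists were chosen with earlier results of these data known. Values in every library are given, by rule, for the 2 members of each role group with the largest log2 fold change in WT in either direction and for every member that differed between genotypes under cerulein or in the interaction. Up to 4 genes per pathway list with the smallest p are named in each comparison, and a few others were chosen after their values were seen. The result of 1 pathway list is not reported here. Alternatives were other scalings, no count filter, DESeq2 1.42.0, limma-voom 3.58.1, no sex term, a replicate block, females only, equal depth, leaving out 3 shallow libraries, fitting 2 groups at a time, and leaving out each library.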

Additional observations from a re-analysis of the deposited data

Results flagged for a closer look

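The cerulein response differed between the genotypes for 11 members, by the interaction term of the edgeR model (values are the Adam17ex log2 response minus the WT log2 response, with the adjusted p over 8236 genes). For zyxin (Zyx) it was -2.44 (0.000162), and for gamma-actin (Actg1) -1.73 (0.00243). Lasp1 stood at -1.63 (0.0106), Wdr1 at -1.54 (0.0168), Myh9 at -1.36 (0.0120) and Plec at -1.15 (0.0383). Actn1 was at -1.10 (0.0316), Tpm3 at -1.06 (0.0215), Actb at -1.05 (0.0443), Lima1 at -0.98 (0.0316) and Tpm1 at -0.97 (0.0367). All 11 values are below 0, which by their definition means a smaller log2 response in Adam17ex than in WT.

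A single library lay far from the other 3 of its group for 7 of the 180 sets of 4 libraries (45 members in 4 groups), where chance gives about 1 in 20. Lasp1 in Adam17ex PBS replicate 1 was at 7.80 CPM, with the others at 26.1 to 28.4, and Myl12b in that library at 13.004 CPM, with the others at 39.4 to 43.9. Rdx in Adam17ex PBS replicate 3 was at 110.5 CPM against 152 to 161. Tpm4 in WT PBS replicate 4 was at 24.5 CPM against 36.5 to 38.8, and Pfn1 in WT PBS replicate 2 at 257 CPM against 168 to 172. Under cerulein in WT, Capzb in replicate 1 was at 99.5 CPM against 122 to 125, and Arpc5l in replicate 2 at 58.7 CPM against 51.6 to 52.5.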

How the results depend on the processing

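Over 28 other settings (27 for the interaction), no called member reversed. Calls were kept in every setting in which the gene was tested for 31 of 36 members under cerulein in WT, 14 of 20 in Adam17ex, 4 of 13 between genotypes under cerulein, 0 of 1 under PBS and 1 of 11 for the interaction. No scaling moved the median of all genes by over 0.1 (log2). Leaving out 1 library gave 32 to 38 members higher and 1 lower in WT, 16 to 22 higher and 0 to 3 lower in Adam17ex, 1 higher and 9 to 13 lower between genotypes under cerulein, 0 to 3 higher and 0 lower under PBS, and 0 to 1 above and 5 to 11 below 0 for the interaction. In Adam17ex 2 members fell, but 1 did without WT PBS 1, 2, 3 or 4, WT cerulein 2, Adam17ex PBS 4 or Adam17ex cerulein 1, 2 or 3, and 0 without Adam17ex PBS 3. Under PBS 1 member was higher, but 2 were without WT PBS 2, 3 without Adam17ex PBS 4, and 0 without the 6 libraries named for Zyx. The interaction had 1 member above 0 without Adam17ex cerulein 1.

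Equal depth left 0 members lower in WT, 0 lower in Adam17ex, 0 higher and 7 lower between genotypes under cerulein, 0 higher under PBS and 4 below 0 for the interaction. Females only left 0 lower in Adam17ex, 0 higher and 5 lower between genotypes under cerulein, 0 higher under PBS and 2 for the interaction. Without the 3 shallow libraries 0 fell in Adam17ex, 0 were higher under PBS and 4 passed for the interaction. Fitting 2 groups at a time gave 0 lower in WT, 0 lower in Adam17ex and 0 higher under PBS. With no count filter 1 fell in Adam17ex, 2 were higher under PBS and 6 passed for the interaction. DESeq2 and limma-voom each gave 1 lower in Adam17ex, and limma-voom 2 higher between genotypes under cerulein. Without the sex term 2 were higher between genotypes under cerulein and 2 under PBS. Fewer libraries, fewer UMIs or a different number of tested genes are part of several of these settings. The cause of the other changes was not tested.

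Counts over all genes moved by more than 1.5 times as well. Cerulein in WT gave 3388 genes, and 1546 at equal depth. In Adam17ex it gave 2493, and 1422, 1020 and 1360 with females only, at equal depth and without the shallow libraries. Between genotypes under cerulein there were 799, and 273 with females only, 237 at equal depth and 402 without WT cerulein replicate 1. Under PBS 112 genes passed, and 331 with no filter, 234 with DESeq2, 406 without sex, 230 with the replicate block, and 22, 9, 15 and 14 with females only, at equal depth, without the shallow libraries and with 2 groups at a time. The interaction gave 496, and 82, 135 and 152 with females only, at equal depth and without the shallow libraries. Leaving out 1 library gave 2919 to 3555, 2022 to 2615, 402 to 913, 30 to 370 and 239 to 624 in the 5 comparisons in that order.

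Replicate numbers did not pair the samples: deviations of same-numbered libraries had a median correlation of 0.00 over 24 pairs, against -0.01 over 72 pairs with different numbers, and 5 of 16 libraries correlated best with their own number. With the replicate block 2 members were higher under PBS. None of the 15 ratios of related genes passed under any alternative, where the paired sign-flip test with the replicate block cannot give a p under 0.125.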
